A study of Mus musculus with 6 samples.

Results

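*Myc* and 9 genes of ribosome biogenesis were followed in cardiomyocyte (CM) nuclei after overexpression (OE) of YAP variants. The 10 genes were *Myc*, *Ncl*, *Npm1*, *Fbl*, *Nop56*, *Nop58*, *Nolc1*, *Polr1b*, *Rrp9* and *Bop1*. They were chosen by name, with earlier results of these data known. Each symbol was found once in the GENCODE M21 annotation of GRCm38, so that 10 of the 54532 genes in the count table are members. All 10 passed the filter on low counts (median log2 CPM over 1 in at least 1 group), which left 13323 genes in all. CPM is the count scaled to the size of the library, and the levels reported below are further scaled with TMM factors. All mice were wildtype ICR mice, and AAV9 was given under the skin at 6 d of age, at a dose of 1e+11 viral genomes. The virus carried GFP, YAP6SA or YAP5SA under the cardiac troponin T (cTnT) promoter, which drives expression in CMs. YAP5SA carries serine-to-alanine changes at the sites that the LATS kinases phosphorylate, and YAP6SA carries these and a further change that disrupts the binding of YAP to the TEAD transcription factors. Hearts were collected at 9 d of age, nuclei bound by an antibody to PCM-1 were pulled down to enrich CM nuclei, and nuclear poly-A RNA was read from libraries that keep no strand. Every group (3 in all) had 2 libraries, with 1 in each of 2 batches. The labels give 2 hearts for each virus but not which heart went into which library, so that the tests measure the spread between these libraries.

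MYC is a basic helix-loop-helix leucine zipper transcription factor that binds DNA at E boxes as a dimer with MAX, and it is known for driving growth, in large part through genes that build ribosomes. Ribosomes are assembled in the nucleolus, where RNA polymerase I transcribes the precursor of the large rRNAs, small nucleolar ribonucleoproteins (snoRNPs) modify it, and processing complexes cut it into the rRNAs of the small and large subunit. In CMs, demand for new ribosomes is known to accompany growth, and MYC is known to be low in the adult heart. The genes followed here cover these steps, from the regulator through the polymerase to the modification and cleavage of the precursor.

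Counts on genes ran from 14552847 to 19615627 per library, and a count of 0 allows up to 3, or 0.153 to 0.199 CPM, a floor that covers counting error alone. *Yap1*, the gene whose variants were delivered, did not pass in these counts, and its log2 fold changes against GFP were -0.09 under YAP6SA (FDR 0.952) and -0.17 under YAP5SA (FDR 0.495). Whether reads from the virus were counted on *Yap1* was not tested. Of the 10 CM markers listed, all were detected, and their summed level was 60800 and 80600 CPM in the GFP libraries, 57500 and 74700 in YAP6SA and 50000 and 36500 in YAP5SA. Of these 10 markers, 2 passed as lower in YAP5SA OE CMs against GFP, *Pln* and *Ryr2* (20%, beside 9.18% of all genes tested). Most of the others also lay below 0, with 1 of the 10 log2 fold changes above 0 and a median of -0.76. The median difference was -0.3 in batch 1 and -1.13 in batch 2. Of the 7 macrophage markers tested, 2 were higher in YAP5SA OE CMs (*Lyz2* and *C1qa*), and the summed level of the 8 listed was 61.4 and 88.8 CPM in GFP against 90.6 and 137 in YAP5SA. Summed markers of fibroblasts ran from 860 to 1780 CPM and those of endothelial cells from 479 to 712 CPM, with the groups overlapping. Those of mural cells were 498 and 568 CPM in GFP against 429 and 336 in YAP5SA, with 1 of 6 lower. The YAP5SA library of batch 2 was above each of the other 5 libraries for all 10 members, which was so for 30.6% of all genes tested. The part of these shifts in the results below was not tested.

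In GFP OE CMs, the control level per length of exon was highest for *Nop56*, with 36.3 ± 2.02 CPM per kb (SD, n = 2), and then for *Npm1* with 24.9 ± 3.99. *Bop1* followed with 18 ± 2.58, *Nolc1* with 13.2 ± 1.79, *Rrp9* with 12.1 ± 0.58 and *Polr1b* with 11.6 ± 1.34. *Myc* stood at 6.65 ± 1.41 CPM per kb, close to *Fbl* at 5.94 ± 0.454. *Ncl* and *Nop58* came last with 4.31 ± 0.317 and 3.38 ± 0.632, on exon lengths of 10188 and 10758 bases that include the exons of every annotated transcript, and a level per length is low where most of that length is little used. The neighbours *Nolc1*, *Rrp9* and *Polr1b* lay within their spread of each other, as did *Myc* and *Fbl*.

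Which of these genes changed under the variant that keeps TEAD binding was asked by comparing YAP5SA OE CMs with GFP. *Myc* and 6 of the 9 ribosome biogenesis genes rose, namely *Ncl*, *Npm1*, *Fbl*, *Nop56*, *Nop58* and *Bop1*, and none fell (edgeR quasi-likelihood test with a batch term, Benjamini-Hochberg adjusted p under 0.05 over all genes tested, given as FDR). That is 7 of 10 genes higher, where 12.8% of all genes tested were higher and 9.18% were lower. The members were chosen with earlier results of these data known, and how far this contrast reflects that choice was not tested. The median log2 fold change of the 10 was 0.76, and that of all genes tested was 0. In YAP6SA OE CMs, whose variant carries the change that disrupts TEAD binding, 0 of the 10 genes passed in either direction, where only 0.0450% of all genes tested were higher and 0% were lower. Since RNA was measured in bulk, more or fewer cells of a type and more or less RNA per cell cannot be told apart.

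**Figure D1:**
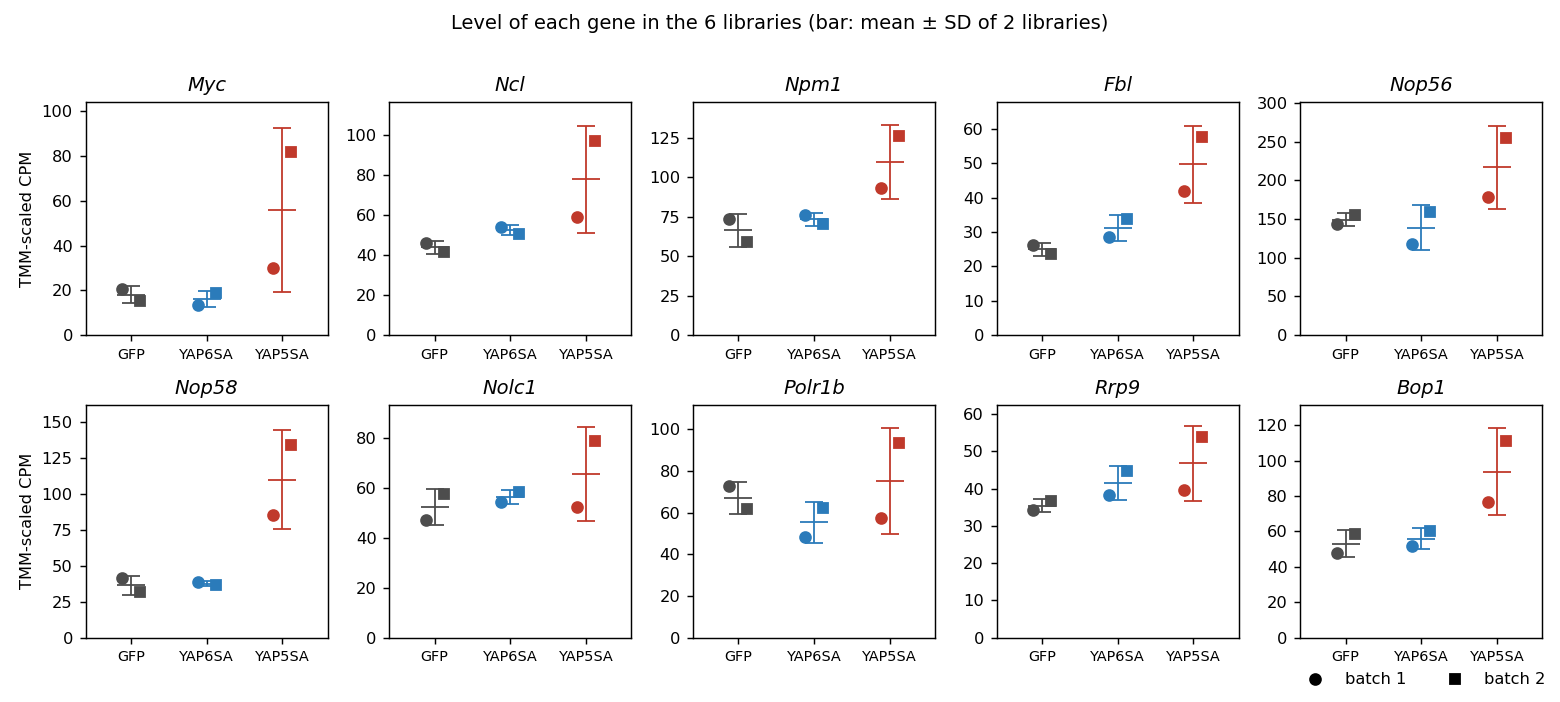
TMM-scaled CPM of *Myc* and the 9 ribosome biogenesis genes in each library, with 1 panel per gene and an axis that starts at 0. Circles are batch 1 and squares batch 2, and the bars are the mean ± SD of the 2 libraries of a group. In every panel the YAP5SA library of batch 2 is the highest, and for *Nolc1* and *Polr1b* the YAP5SA library of batch 1 lies within or below the GFP libraries.

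*Myc* (ENSMUSG00000022346, chromosome 15, 61985391 to 61990374, plus strand, GRCm38) was covered in GFP by 395 counts in batch 1 and 235 in batch 2, in YAP6SA by 266 and 310, and in YAP5SA by 455 and 1457. As levels these were 20.8 and 15.3 CPM in GFP, 13.5 and 18.8 in YAP6SA, and 30.1 and 81.7 in YAP5SA. Both YAP5SA libraries lay above all 4 others, and they lay far apart from each other. For *Myc* and the members below, the share of all genes with YAP5SA above all 4 others was not computed. The log2 fold change of *Myc* against GFP was 1.48 (SE 0.36, 95% interval 0.68 to 2.28, FDR 0.0172), a 2.79-fold higher level. Within batches the log2 difference was 0.54 in batch 1 and 2.41 in batch 2. Without the YAP5SA library of batch 2 the log2 fold change of *Myc* was 0.75 with an FDR of 0.0694, and without the GFP library of batch 2 it was 0.80 with an FDR of 0.196, neither past the threshold.

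The box C/D snoRNP, which places methyl groups on the sugars of rRNA, is built on the scaffold proteins NOP56 and NOP58 and carries the methyltransferase fibrillarin, the product of *Fbl*. *Nop58* (ENSMUSG00000026020, chromosome 1, 59684971 to 59719044, plus strand) had 41.2 and 31.6 CPM in GFP, 38.7 and 36.6 in YAP6SA, and 85.3 and 134 in YAP5SA OE CMs. Its YAP5SA libraries were thus well clear of the other 4, and its log2 fold change against GFP of 1.57 (SE 0.23, 95% interval 1.06 to 2.09, FDR 0.0018) was the largest of the 10 in this fit. *Nop58* was also the member that passed in every alternative run for this comparison, with each library left out included (FDR at most 0.0168). *Fbl* (ENSMUSG00000046865, chromosome 7, 28169710 to 28179269, plus strand) had 26.3 and 23.6 CPM in GFP, 28.6 and 33.9 in YAP6SA, and 41.8 and 57.6 in YAP5SA. It rose by 0.97 (SE 0.20, FDR 0.00816), with 0.67 in batch 1 and 1.28 in batch 2. *Nop56* (ENSMUSG00000027405, chromosome 2, 130274430 to 130279313, plus strand), the most abundant of the 10 per length, had 143 and 155 CPM in GFP, 118 and 159 in YAP6SA, and 179 and 255 in YAP5SA. Its rise of 0.52 (SE 0.16, FDR 0.0402) was the smallest among the members that passed, and the call was not stable. It was lost without the batch term as a replicate block (FDR 0.121), in the fit of 4 libraries (FDR 0.0754), and in 5 of the 6 fits with a library left out (FDR 0.0656 to 0.469), all but that without the YAP5SA library of batch 1. The 95% intervals were 0.17 to 0.87 for *Nop56* and 1.06 to 2.09 for *Nop58*, and the difference between these genes was not tested. Exons of *Nop56*, *Nop58* and *Ncl* hold annotated snoRNA genes with 0 counts, and reads ambiguous between genes were left out of the counts.

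The 250 bases before the RefSeq start (GRCm38.p6) are shown for both scaffold genes, since their products share a complex and their values lie at the low and high end of the members that passed. *Nop58* lies at chr1:59684756-59685005 on the plus strand with 41.2% G and C, and *Nop56* at chr2:130274162-130274411 on the plus strand with 65.2%, where the median of all promoters was 52.4%. Capitals would mark the E box in its looser form CANNTG, which includes CACGTG, and none was found. The TEAD core GGAATG, searched on both strands and not marked by capitals, was not found either.
Nop58: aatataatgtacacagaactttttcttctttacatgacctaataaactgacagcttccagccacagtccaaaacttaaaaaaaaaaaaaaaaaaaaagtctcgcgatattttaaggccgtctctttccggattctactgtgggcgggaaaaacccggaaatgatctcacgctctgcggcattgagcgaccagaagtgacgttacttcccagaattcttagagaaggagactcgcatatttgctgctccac
Nop56: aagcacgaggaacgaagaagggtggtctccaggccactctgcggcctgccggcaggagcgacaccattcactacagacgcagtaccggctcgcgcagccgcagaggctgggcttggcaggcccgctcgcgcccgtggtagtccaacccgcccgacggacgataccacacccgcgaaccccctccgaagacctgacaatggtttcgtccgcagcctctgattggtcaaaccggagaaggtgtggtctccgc

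Nucleolin and nucleophosmin, the products of *Ncl* and *Npm1*, are abundant nucleolar proteins that bind rRNA precursors and act as chaperones of assembly. *Ncl* (ENSMUSG00000026234, chromosome 1, 86344719 to 86359400, minus strand) had 46.2 and 41.6 CPM in GFP, 54.1 and 50.6 in YAP6SA, and 58.8 and 96.7 in YAP5SA. Its groups did not overlap and followed the order GFP, YAP6SA, YAP5SA, as did those of *Fbl*. The share of all genes with this order was not computed. Both YAP6SA libraries lay above both GFP libraries for 17.3% of all genes tested, and both YAP5SA above both YAP6SA libraries for 28.6%. YAP6SA was not past the threshold against GFP for either gene (FDR 0.915 for *Ncl* and 0.891 for *Fbl*). The log2 fold change of *Ncl* in YAP5SA was 0.80 (SE 0.22, FDR 0.0261), with 0.35 in batch 1 and 1.22 in batch 2. *Npm1* (ENSMUSG00000057113, chromosome 11, 33152287 to 33163206, minus strand) had 73.8 and 58.8 CPM in GFP, 76.3 and 70.6 in YAP6SA, and 93.1 and 126 in YAP5SA. It rose by 0.73 (SE 0.19, FDR 0.0234), again less in batch 1 (0.33) than in batch 2 (1.1). Near-identical copies were found for *Npm1*, *Fbl* and *Nop56* (5, 2 and 3 other genes). Each shares a stretch of at least 100 bases at 95% identity or more. Reads that map to several places were not counted, so that the levels of *Npm1*, *Fbl* and *Nop56* are uncertain to that extent. *Tulp4* matches 677 of 984 coding bases of *Fbl* at 99.6% and held 6277 counts, beside 3643 on *Fbl*. The copies held 1401 counts beside 8629 on *Npm1*, and 263 beside 17284 on *Nop56*. How many of these counts came from the shared stretches was not tested.

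The large subunit was represented by *Bop1*, whose product forms the PeBoW complex with PES1 and WDR12 and is needed to process the rRNAs of that subunit. *Bop1* (ENSMUSG00000022557, chromosome 15, 76452989 to 76477277, minus strand) had 47.8 and 58.6 CPM in GFP, 51.6 and 60.1 in YAP6SA, and 76.4 and 111 in YAP5SA OE CMs. Both YAP5SA libraries exceeded the other 4, and the rise of 0.80 (SE 0.15, FDR 0.00644) was close in batch 1 (0.68) and batch 2 (0.92). It shares 50 exon bases with *Mroh1* on the opposite strand, and the libraries keep no strand.

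The members for RNA polymerase I, for the snoRNP-binding protein Nopp140 and for the small subunit did not pass. *Polr1b*, which encodes the second largest subunit of RNA polymerase I (ENSMUSG00000027395, chromosome 2, 129100995 to 129126594, plus strand), had 72.6 and 61.6 CPM in GFP, 48.4 and 62.4 in YAP6SA, and 57.3 and 93.3 in YAP5SA. Its batches went opposite ways, with a log2 difference of -0.34 in batch 1 and 0.6 in batch 2, and its fitted change was 0.12 (95% interval -0.35 to 0.59, FDR 0.712). *Nolc1* encodes Nopp140, a phosphoprotein that binds snoRNPs and RNA polymerase I (ENSMUSG00000015176, chromosome 19, 46075863 to 46085530, plus strand). It had 47.2 and 57.3 CPM in GFP, 54.2 and 58.1 in YAP6SA, and 52.1 and 78.8 in YAP5SA, and its change of 0.31 had an interval of -0.06 to 0.68 (FDR 0.215). *Rrp9*, whose product belongs to the U3 snoRNP that acts in early cleavage for the small subunit (ENSMUSG00000041506, chromosome 9, 106475963 to 106485424, plus strand), had 34.2 and 36.6 CPM in GFP, 38.2 and 44.7 in YAP6SA, and 39.7 and 53.8 in YAP5SA. Its change of 0.39 (interval 0.01 to 0.76) had an unadjusted p of 0.0458 and an FDR of 0.129. For these 3 genes the intervals leave room for a rise of the size seen in *Nop56*.

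**Figure D2:**
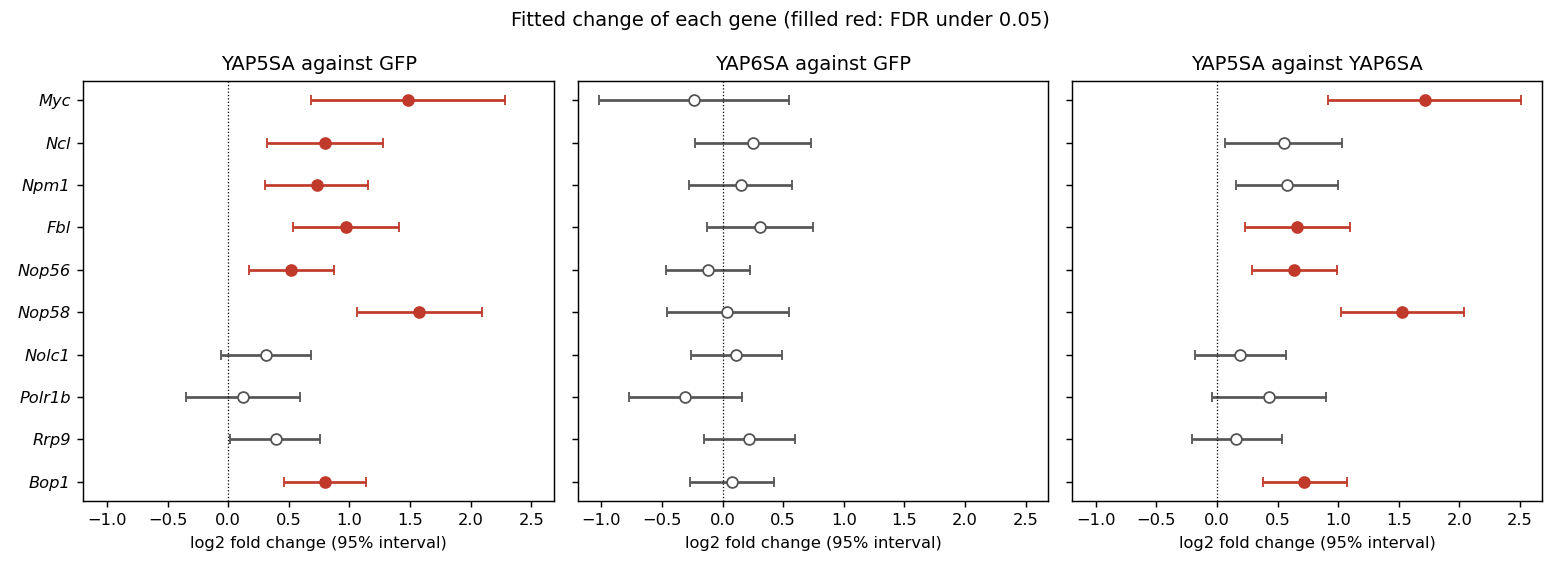
Log2 fold change (horizontal axis) of the 10 genes (vertical axis) in YAP5SA against GFP, YAP6SA against GFP and YAP5SA against YAP6SA, from 1 model of all 6 libraries. Points are the fitted values, bars their 95% intervals, and filled red points have an FDR under 0.05. In the YAP5SA panel 7 of 10 points are filled, in the YAP6SA panel 0, and in the panel of the variants 5.

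All 10 log2 differences between YAP5SA and GFP were larger in batch 2 than in batch 1, with medians of 1.01 and 0.34. Among all genes higher in YAP5SA OE CMs, 84.5% likewise had the larger difference in batch 2, so that the members share this with the series. In batch 1 alone, 9 of the 10 differences were above 0, *Polr1b* being the exception, and they ran from -0.34 to 1.05. In CPM, the 2 YAP5SA libraries lay above both GFP libraries for 8 of 10 members, all but *Nolc1* and *Polr1b*, against 31.2% of all genes tested. The count of members past the threshold rested on single libraries. It was 1 of 10 without the GFP library of batch 2 (*Nop58*), 3 of 10 without the YAP5SA library of batch 2 (*Bop1*, *Fbl* and *Nop58*), and 9 of 10 without the YAP5SA library of batch 1. Without the batch term as a replicate block it was 6.

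**Figure D3:**
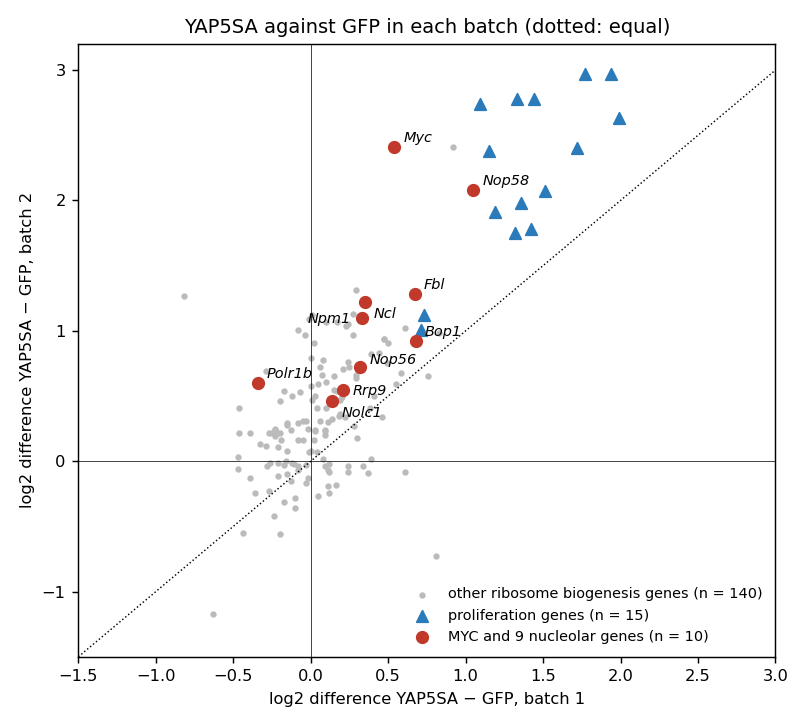
Log2 difference between the YAP5SA and the GFP library of batch 1 (horizontal axis) and of batch 2 (vertical axis), for the 10 genes (red, named), the 140 other ribosome biogenesis genes tested (grey) and 15 proliferation genes (blue triangles). The dotted line marks equal differences. All 10 red points lie above it, *Polr1b* alone lies left of 0, and *Myc* lies farthest above the line among the 10, at 0.54 and 2.41.

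In YAP6SA OE CMs, log2 fold changes of the 10 genes against GFP ran from -0.31 (*Polr1b*) to 0.31 (*Fbl*), with a median of 0.10, and their FDR ran from 0.891 to 0.987. Of all genes tested, 0.0450% were higher and 0% lower in this comparison, and 514 and 276 genes had an unadjusted p under 0.05, none of them a member. *Myc* was at -0.24 (95% interval -1.02 to 0.55), an interval that does not reach the 1.48 fitted in YAP5SA. For *Nop58* it was 0.04 (interval -0.46 to 0.55), which lies wholly below the interval in YAP5SA. *Ncl* and *Fbl* had both YAP6SA libraries above both GFP libraries, as had *Rrp9*, where 17.3% of all genes tested did, and the fitted changes were 0.25, 0.31 and 0.22. Their intervals (-0.23 to 0.73, -0.13 to 0.75 and -0.15 to 0.6) include rises as large as that of *Nop56* in YAP5SA. Rises up to that size in YAP6SA OE CMs could not be told from none in this fit, whose spread was estimated over all 6 libraries.

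The direct comparison of the variants, which shares its YAP5SA libraries with the one against GFP, tests the difference that goes with the change at the TEAD-binding site. The study also reports that YAP6SA was less nuclear and more cytoplasmic than YAP5SA. Loss of TEAD binding and this shift in location cannot be told apart here. In YAP5SA OE CMs, 5 of 10 members were higher than in YAP6SA OE CMs and 0 were lower, where 9.0% of all genes tested were higher and 5.68% lower. Here too the members had been chosen with earlier results of these data known. The 5 were *Myc* (1.72, SE 0.35, FDR 0.0122), *Nop58* (1.53, SE 0.23, FDR 0.00272), *Bop1* (0.72, SE 0.15, FDR 0.0135), *Fbl* (0.66, SE 0.19, FDR 0.0476) and *Nop56* (0.64, SE 0.16, FDR 0.0245). *Npm1* and *Ncl*, which were called against GFP, had values of 0.58 and 0.55 that did not pass (FDR 0.068 and 0.115). *Polr1b* was at 0.43, *Nolc1* at 0.19 and *Rrp9* at 0.16, with FDR from 0.197 to 0.552. Both YAP5SA libraries lay above both YAP6SA libraries for 7 of 10 members, all but *Nolc1*, *Polr1b* and *Rrp9*, against 28.6% of all genes tested. For *Myc* the difference was 1.15 in batch 1 and 2.12 in batch 2, and so was less uneven than against GFP. The count fell to 2 of 10 without the batch term as a replicate block (*Myc* and *Nop58*). It was 1 of 10 without the YAP6SA library of batch 2, 3 without that of batch 1 or without the YAP5SA library of batch 2, and 8 without the YAP5SA library of batch 1.

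Whether the rise extended to the rest of the pathway was read from lists of 142 other ribosome biogenesis genes, of which 140 were tested. In YAP5SA OE CMs against GFP, 11 of them were higher (7.86%) and 2 were lower (1.43%), beside 12.8% and 9.18% of all genes tested, and their median log2 fold change was 0.15. Above 0 were 98 of the 140 values, beside 6627 of the 13323 over all genes. The share that passed was below that of all genes here, but this order turned without the YAP5SA library of batch 1, when 36 of 140 were higher (25.7%) beside 18.9% of all genes. Without the GFP library of batch 2, 0 of 140 were higher. Of the 11, 8 act in the large subunit, among 52 such genes tested (15.4%). The largest rises there were those of *Gnl3* (0.94, FDR 0.00511), *Pes1* (0.72, FDR 0.0379) and *Ppan* (0.71, FDR 0.0128). *Gnl3* encodes nucleostemin, a nucleolar GTPase, and had 75.9 and 71 CPM in GFP, 86.3 and 71.2 in YAP6SA, and 126 and 155 in YAP5SA. *Pes1*, whose product is the partner of BOP1 in PeBoW, had 20.2 and 27.6 CPM in GFP, 20.7 and 22.7 in YAP6SA, and 28.6 and 51.9 in YAP5SA, so that its batch 1 library lay just above the GFP libraries.

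The lists below stand beside all genes tested, of which 12.8% were higher and 9.18% lower in YAP5SA against GFP. Of 14 other snoRNP genes tested, 1 rose (7.14%), *Nhp2*, which encodes a core protein of the H/ACA snoRNPs that turn uridine into pseudouridine. It was a gene of low level, with 5.52 and 3.4 CPM in GFP, 6.41 and 4.55 in YAP6SA, and 10.5 and 18.2 in YAP5SA (log2 fold change 1.70, SE 0.40, FDR 0.0149). Of 4 nucleolar chaperone genes, *Nop53* passed with 0.45 (FDR 0.0486), a call that held in 4 of 9 alternatives and in 1 of 6 fits with a library left out. In the small subunit list 0 of 50 genes rose and 1 fell, the helicase gene *Dhx37* at -0.49 (FDR 0.0362), which held in 5 of 9 alternatives and in 1 of 6 fits with a library left out. The median of the list was 0.10. Of 20 genes for RNA polymerase I transcription, 1 rose and 1 fell (5% each). *Polr2f*, whose product is shared by the nuclear RNA polymerases, rose by 0.91 (FDR 0.0288). *Polr1e*, which encodes a subunit of RNA polymerase I alone, fell by 0.90 (FDR 0.0056), from 114 and 154 CPM in GFP to 73.9 and 68.4 in YAP5SA. The median of that list was 0.02. Against YAP6SA, 11 of the 140 genes were higher (7.86%, beside 9.0% of all genes tested) and 0 lower (beside 5.68%), a count that was 0 without the YAP6SA library of batch 2 and 35 without the YAP5SA library of batch 1. Of the 11, 7 act in the large subunit (13.5% of that list), among them *Gnl3* (0.83, FDR 0.0113), *Pes1* (0.83, FDR 0.0296) and *Ppan* (0.70, FDR 0.0171). The others were *Nhp2* (1.40, FDR 0.0386), *Twistnb* (0.92, FDR 0.0445), *Rrp12* (0.78, FDR 0.0483) and *Wdr43* (0.55, FDR 0.0459). In YAP6SA against GFP none of the 140 passed (3 higher and 2 lower at an unadjusted p under 0.05).

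**Figure D4:**
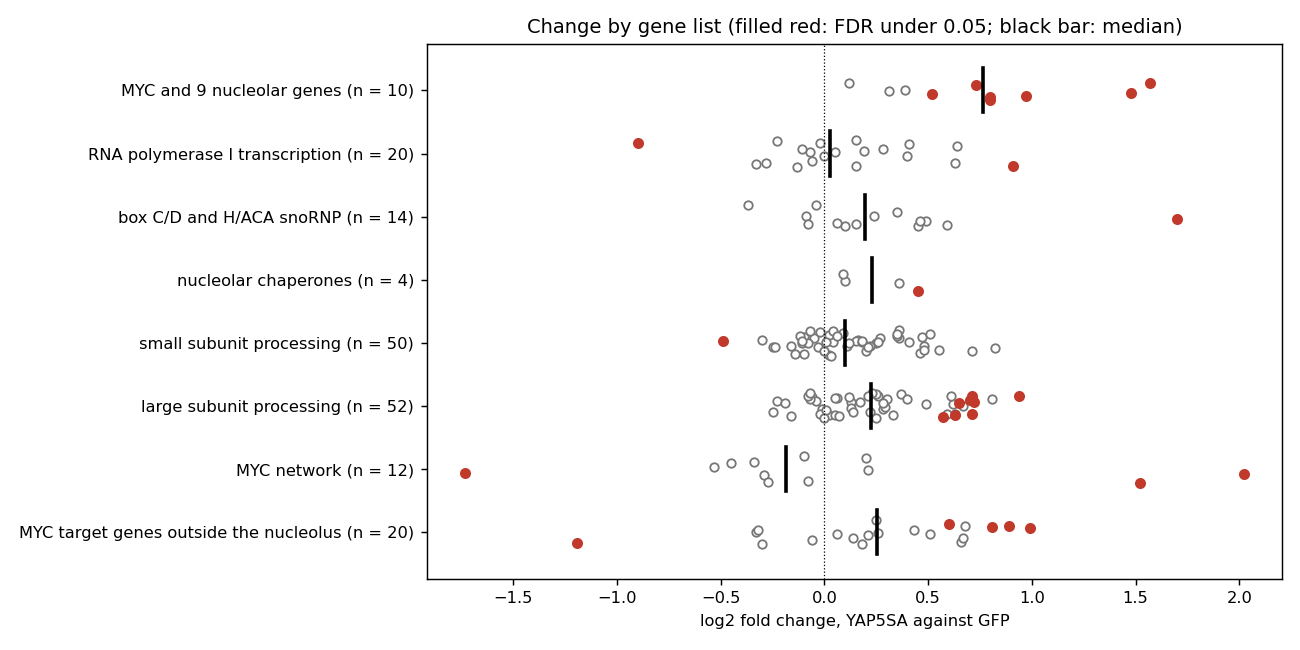
Log2 fold change in YAP5SA against GFP (horizontal axis) of each gene tested, by list (vertical axis, with the number tested). Filled red points have an FDR under 0.05, open points do not, black bars are list medians, and points are spread vertically for legibility alone. The median of *Myc* and the 9 nucleolar genes is 0.76 and those of the other lists run from -0.19 to 0.26.

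MYC is one of 3 closely related MYC proteins, and its dimer partner MAX also pairs with the MXD proteins, MNT and MGA, which repress E-box genes. Of the 12 network genes tested besides *Myc*, 2 rose (16.7%) and 1 fell (8.33%) in YAP5SA OE CMs, shares near the 12.8% and 9.18% of all genes tested. *Mycn*, a paralogue of *Myc*, had 11.9 and 8.55 CPM in GFP, 12.8 and 9.82 in YAP6SA, and 17 and 44.3 in YAP5SA, a log2 fold change of 1.52 (SE 0.41, FDR 0.0259) that was 0.51 in batch 1 and 2.37 in batch 2. Its call was lost in 2 of 6 fits with a library left out, in which values ran from 0.54 to 2.35 and the FDR reached 0.247. The differences of *Myc* and *Mycn* were thus alike in each batch. The third paralogue, *Mycl*, had at most 6 counts in any library and was not tested. *Mxd3*, a MAX partner of the repressor kind, had 5.89 and 4.7 CPM in GFP, 7.27 and 4.18 in YAP6SA, and 17.9 and 24.3 in YAP5SA, and rose by 2.02 (SE 0.33, FDR 0.00318). *Max* itself was at -0.10 (95% interval -0.44 to 0.24, FDR 0.671).

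*Mlxipl* encodes ChREBP, a glucose-responsive factor that pairs with MLX. It fell by 1.73 on the log2 scale (SE 0.22, FDR 0.00103), from 260 and 257 CPM in GFP to 103 and 56.9 in YAP5SA, with 186 and 199 in YAP6SA between them (log2 fold change against GFP -0.42, FDR 0.842). The other 8 network genes tested did not pass, and their values ran from -0.53 (*Mxi1*) to 0.21 (*Mnt*), with *Mga* at -0.34 and *Mlxip* at -0.45 among those below 0. Against YAP6SA the same 3 genes passed in the same directions, *Mycn* at 1.39 (FDR 0.0469), *Mxd3* at 1.91 (FDR 0.00539) and *Mlxipl* at -1.31 (FDR 0.00486). None of the 12 passed in YAP6SA against GFP, in which 0 had an unadjusted p under 0.05. Of the 15 genes outside the members that are named for passing against GFP, *Mxd3* and *Mlxipl* kept their call with each library left out.

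**Figure D5:**
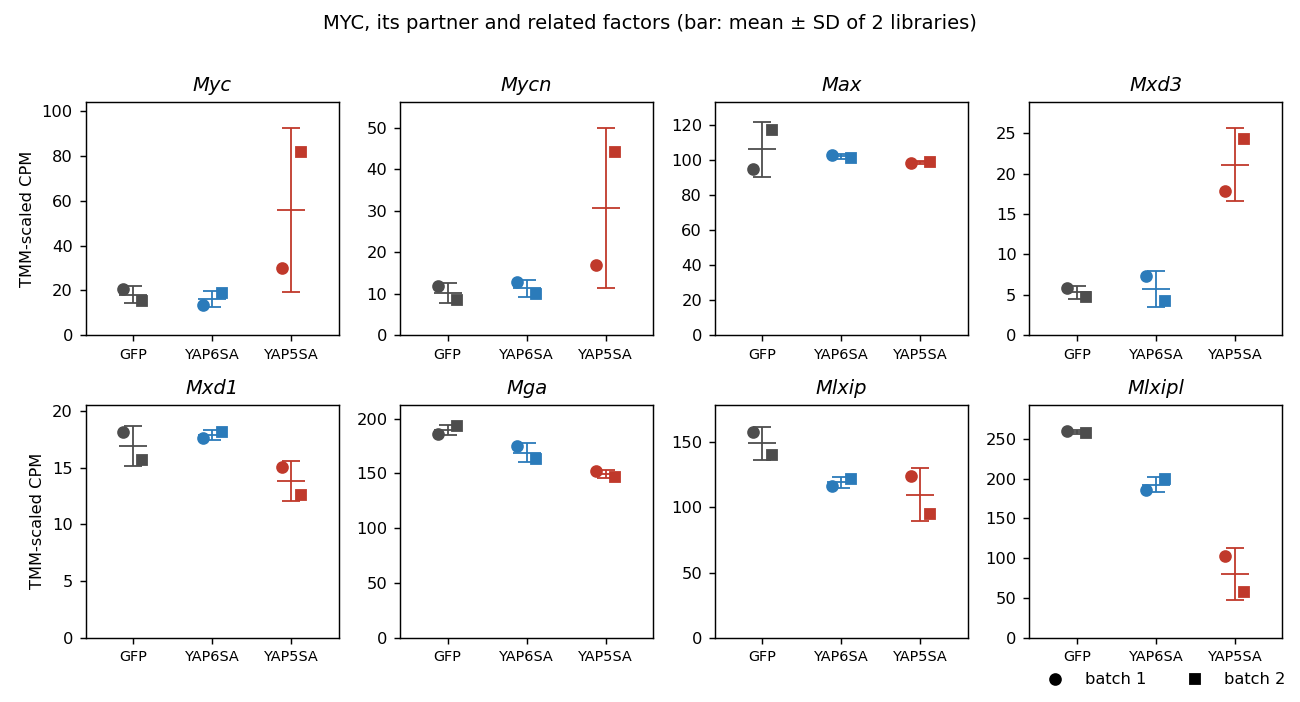
TMM-scaled CPM of *Myc*, *Mycn*, their partner *Max* and 5 related factors in each library, with axes that start at 0, circles for batch 1, squares for batch 2 and bars for the mean ± SD of 2 libraries. *Myc* and *Mycn* are highest in the YAP5SA library of batch 2, *Mxd3* is high in both YAP5SA libraries, *Max* lies between 95 and 117 CPM in all 6, and *Mlxipl* is lowest in YAP5SA.

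Among 20 genes known as MYC targets outside the nucleolus, 4 rose (20%) and 1 fell (5%) in YAP5SA OE CMs, beside 12.8% and 9.18% of all genes tested, with a median of 0.26. *Ran*, a GTPase of nuclear transport, rose by 0.99 (FDR 0.00538), from 68.7 and 71.4 CPM in GFP to 117 and 163 in YAP5SA. *Hspe1*, a mitochondrial co-chaperonin, rose by 0.89 (FDR 0.0227), and *Ppat*, which encodes the first enzyme of purine synthesis, by 0.81 (FDR 0.00612). *Tfrc*, the transferrin receptor, went the other way. It had 1140 and 1070 CPM in GFP, 986 and 978 in YAP6SA, and 625 and 367 in YAP5SA, a fall of 1.19 on the log2 scale (FDR 0.00543). Against YAP6SA, *Ran* was higher (0.70, FDR 0.0295) and *Tfrc* lower (-1.02, FDR 0.0141), and in YAP6SA against GFP none of the 20 passed. For scale, all 15 listed proliferation genes were higher in YAP5SA than in either other group. Their median against GFP was 1.81, beside a median of 0.76 for the 10 members. The largest member values were 1.57 for *Nop58* and 1.48 for *Myc*.

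The E box CACGTG, which reads the same on both strands, was searched from 250 bases before to 50 after the RefSeq start (GRCm38.p6). Of the 10 members, 6 had such a sequence (*Ncl*, *Nop56*, *Nop58*, *Nolc1*, *Polr1b* and *Rrp9*), and 0 of the 6 held the motif. It was found in 23 of 122 other ribosome biogenesis genes (18.9%) and in 9 of 18 MYC targets outside the nucleolus (50%). Over all 27025 genes with a promoter the share was 8.09%, a gene being counted where any of its promoters held the motif. Of the 9 other ribosome biogenesis genes with a sequence that rose in YAP5SA OE CMs, 1 held it, *Pes1*. The looser form CANNTG, which includes CACGTG, was in 2 of the 6 members and in 74.99% of all genes with a promoter. The TEAD core GGAATG, searched on both strands, was in 1 of the 6 members (*Polr1b*, read as CATTCC, first base 31 bases after the start). That is 16.7% of the 6, beside 16.58% of all genes with a promoter. The windows around CACGTG, in capitals, are shown for 3 of the genes above that passed, *Ran* and *Pes1*, which rose, and *Mlxipl*, which fell, with the TEAD core of *Polr1b* beside them. They lie at chr5:129020026-129020055, chr11:3963965-3963994, chr5:135089780-135089809 and chr2:129101014-129101043, all on the plus strand.
Ran: gctcggccggccCACGTGacccgccgcccc
Pes1: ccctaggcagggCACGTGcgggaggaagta
Mlxipl: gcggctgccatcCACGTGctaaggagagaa
Polr1b: ggttggtccggcCATTCCagccagccacga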

How the data were processed

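Reads were aligned by the authors to mm10 using STAR and Ensembl GRCm38.94, and the deposited file holds raw read counts per gene, without normalization. Reads unmapped (3.03% to 3.63% of a library), at several places, outside genes or ambiguous between genes (5.79% to 6.31%) are not in the gene counts. From these counts, genes were kept and tested as in the study's methods (edgeR 4.0.16 in R 4.3.3, TMM, terms for group and batch, all 6 libraries), with the quasi-likelihood test chosen here. For YAP6SA the study reports many more changed genes, at an FDR under 0.05, than the 6 higher and 0 lower against GFP found here. Over the 9 alternatives that kept all libraries of the comparison, 0 to 168 genes were higher and 0 to 68 lower. Both upper values, 168 and 68, came when YAP5SA was kept out of the model, and 0 higher came with no batch term. The cause of the difference from the study was not tested. SE is the log2 fold change over the square root of F, and batch values are differences of log2 CPM with a prior count of 0.5. The batch number in the labels pairs the libraries, whose deviations correlated at 0.336, 0.0942 and 0.17 for the 3 pairs of groups. Replicates were no copies (chi-square per degree of freedom at least 30.9). The alternatives were other scalings, filters and tests (DESeq2 1.42.0, limma-voom 3.58.1, likelihood ratio), no batch term, 4-library fits and each library left out. The code was tested on simulated data. All 10 members, any MYC network gene, and of each other list the 3 largest changes in each direction past the threshold and alike in sign in both batches, are named, and a few other genes were named after their values were seen. The members and lists were chosen with earlier results of these data known. Sequences are from RefSeq.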

Additional observations from a re-analysis of the deposited data

How the results depend on the processing

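In YAP5SA against GFP, 6 to 7 of the 10 members were higher in the 9 alternatives that kept all libraries of the comparison, and 1 to 9 with a library left out. Against YAP6SA the counts were 2 to 7 and 1 to 8, and the 2 came from the fit with no replicate block. In YAP6SA against GFP the count was 0 throughout. No alternative called a member lower.

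Other counts moved as follows. With no filter, 1 other ribosome biogenesis gene was lower against GFP, all genes numbered 109 higher and 36 lower for YAP6SA against GFP, and 1161 were lower in YAP5SA against YAP6SA. With the likelihood ratio test these counts over all genes were 54, 28 and 1155. DESeq2 called 40 higher and 14 lower for YAP6SA against GFP and 1 other ribosome biogenesis gene lower in YAP5SA. With no replicate block, other ribosome biogenesis genes were 5 higher and 1 lower against GFP and 1 higher against YAP6SA, all genes lower were 759 and 301, and YAP6SA against GFP had 0. In fits of 4 libraries, YAP6SA against GFP had 168 higher and 68 lower genes and 1 MYC network or target gene higher, and other ribosome biogenesis genes were 1 lower against GFP and 7 higher against YAP6SA.

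With each library left out, all genes in YAP5SA against GFP ran from 591 to 2538 higher and 197 to 2261 lower, in YAP6SA against GFP from 6 to 157 and 0 to 59, and in YAP5SA against YAP6SA from 341 to 2167 and 69 to 1931. Other ribosome biogenesis genes ran from 0 to 36 higher and 0 to 3 lower against GFP, and from 0 to 35 and 0 to 1 against YAP6SA. MYC network and target genes ran from 1 to 10 higher and 1 to 4 lower against GFP, from 0 to 10 and 0 to 2 against YAP6SA, and from 0 to 1 higher in YAP6SA against GFP. The lowest counts against GFP came without the GFP library of batch 2, and the cause was not tested. With each library left out, *Nop58* alone of the members kept its call in both YAP5SA comparisons, and of the other named genes 2 of 15 did so against GFP and 0 of 12 against YAP6SA.

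Signs turned with a library left out in values that did not pass. *Polr1b* ran from -0.25 to 0.53 and *Max* from -0.24 to 0.06 in YAP5SA against GFP, and *Nolc1* from 0 to 0.40 in YAP5SA against YAP6SA. In YAP6SA against GFP, *Myc* ran from -0.85 to 0.56, *Npm1* from -0.08 to 0.41, *Nop56* from -0.29 to 0.06, *Nop58* from -0.26 to 0.41, *Nolc1* from -0.06 to 0.27, *Polr1b* from -0.67 to 0.11 and *Bop1* from -0.03 to 0.17. The E box count of 0 of 6 members became 2 with CANNTG.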
